A study of Mus musculus with 12 samples.

Results

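The genes described here are 35 genes of the unfolded protein response and the integrated stress response, measured in mouse kidney on one-colour Agilent microarrays. They were chosen by name: every non-control probe whose gene name in the scanner files is one of the 35 was taken, and each gene was read from its brightest probe. They are 35 of 25948 genes and transcripts that passed the filter on dim probes, and all 35 passed it, each well above background on all 12 arrays. By role they are 8 regulators, 11 genes that the transcription factor ATF4 is known to switch on (called ATF4 targets below), 14 chaperones and folding enzymes of the endoplasmic reticulum (ER), and 2 genes of ER-associated degradation.

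The study compared whole kidneys of male mice on a C57 background in 4 groups of 3 animals. The groups were Jaml knockout (KO) mice 24 h after ischemia-reperfusion injury (IRI), wild-type (WT) mice 24 h after IRI, KO mice after a sham operation, and WT mice after a sham operation. Jaml encodes a junctional adhesion molecule of leukocytes and epithelia, and the deletion was not described as limited to a cell type. IRI interrupts the blood flow to the kidneys and then lets it return. Here both sides were closed, for 40 min by clamps in the series text but for 30 min by ligation in the treatment protocol, and the labels do not say which holds. The comparisons ask which of these genes differ between injured and sham-operated kidneys in each genotype, and whether the genotypes differ.

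When unfolded proteins accumulate in the ER, the sensors PERK (Eif2ak3), IRE1 (Ern1) and ATF6 are activated. PERK phosphorylates the translation factor eIF2alpha, which slows protein synthesis in general while ATF4 protein is made, and ATF4 then raises genes of amino acid synthesis, amino acid uptake and tRNA charging; this arm is also reached from other kinases that sense amino acid shortage, heme shortage or viral RNA, and is then called the integrated stress response. ATF6 and the spliced form of XBP1 made by IRE1 raise the ER chaperones and the genes that remove misfolded proteins. The tubule cells of the kidney are rich in ER and mitochondria, and both arms are known to respond to ischemia. The arrays measure RNA and hold no value for splicing, phosphorylation or protein.

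The promoters are shown because ATF4 and the ER stress factors are known to bind different DNA elements. RefSeq sequences on GRCm38.p6, from 250 bases before to 50 bases after the start, were at hand for 31 of the 35 genes; those of Atf6, Hyou1, Manf and Wars were not used here. Both strands were searched for 4 published response elements, and no 2 matches overlapped in a member. The ER stress element bound by ATF6 with NF-Y, written CCAAT and CCACG with 9 free bases between them, was in 7 of 12 chaperone promoters (Hspa5, Hsp90b1, Calr, Canx, Creld2, Dnajc3 and Pdia6) and in 0 of 10 ATF4 target promoters, against 0.12% of all 32851 promoters. The C/EBP-ATF response element bound by ATF4, written TGATGNAA, was in 5 of 10 ATF4 target promoters (Asns, Chac1, Trib3, Aars and Gars) and in 0 of 12 chaperone promoters, against 3.97% of all promoters. Herpud1 held the ATF4 element together with the second ER stress element, ATTGG and CCACG with 1 free base between them, which was also in Dnajb11 (7 bases after the start) and in 0.04% of all promoters. The element TGACGTGG, bound by XBP1 and ATF6, was in none of the 31 and in 0.68% of all promoters. A match describes these letters only, and the absence of a match in a window of this length says nothing of the factor. The stretches below show the elements in capitals with the bases around them, 5′ to 3′ on the strand of the gene, for 3 ATF4 targets, for Herpud1 with both kinds of element, and for 4 chaperones, 2 of which fell after IRI. An element read on the other strand appears as its reverse complement.
Asns (chr6:7693210-7693262, minus strand): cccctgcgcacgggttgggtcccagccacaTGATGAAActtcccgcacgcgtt
Chac1 (chr2:119351019-119351086, plus strand): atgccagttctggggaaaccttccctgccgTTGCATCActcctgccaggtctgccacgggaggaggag
Aars (chr8:111033700-111033767, plus strand): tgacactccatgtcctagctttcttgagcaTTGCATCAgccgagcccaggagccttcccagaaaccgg
Herpud1 (chr8:94386287-94386417, plus strand): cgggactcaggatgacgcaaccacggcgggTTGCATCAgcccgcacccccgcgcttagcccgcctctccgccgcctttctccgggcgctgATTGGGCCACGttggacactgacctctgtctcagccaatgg
Hspa5 (chr2:34771995-34772073, plus strand): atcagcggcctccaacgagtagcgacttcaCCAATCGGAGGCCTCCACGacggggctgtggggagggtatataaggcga
Calr (chr8:84847045-84847123, minus strand): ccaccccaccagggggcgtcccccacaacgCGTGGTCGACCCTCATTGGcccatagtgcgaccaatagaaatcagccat
Canx (chr11:50325770-50325848, minus strand): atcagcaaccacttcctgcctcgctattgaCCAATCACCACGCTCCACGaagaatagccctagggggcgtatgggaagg
Creld2 (chr15:88819490-88819568, plus strand): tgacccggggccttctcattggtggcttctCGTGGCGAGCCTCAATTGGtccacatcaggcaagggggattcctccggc
The ATF4 element of Asns lies 23 bases before the start, that of Chac1 193 bases before it, and those of Aars and Herpud1 112 bases before it; Aars holds another, 9 bases after the start, outside the stretch shown. The ER stress element begins 65 bases before the start of Hspa5, 162 before that of Calr, 145 before that of Canx and 126 before that of Creld2.

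Levels below are log2 processed signal minus the 75th percentile of the array, so a difference of 1 is a doubling; they compare the same probe between arrays and not one gene with another. Between 35598 and 38526 probes per array were well above background. Jaml was lower on KO sham arrays (-3.54, -2.59 and -3.18) than on WT sham arrays (-0.26, -0.26 and -0.44), a log2 fold change of -2.79 ± 0.56 (adjusted p = 0.0152), and was -1.89, -2.70 and -3.0 on KO IRI arrays, against 0.55, -1.80 and -1.64 on WT IRI arrays (adjusted p = 0.153); no source used here says whether its probe lies in the deleted part. All 6 KO arrays were on 1 slide and all 6 WT arrays on another, so slide and genotype cannot be told apart, whereas IRI and sham were compared within a slide. WT IRI replicate 1 stood apart: its root mean square distance from its group's mean was 0.579 over all genes, against 0.205 to 0.433 on the other 11 arrays, and it was the farthest of the 3 WT IRI arrays for 27 of the 35 genes. Results that rest on it are given with and without it. Markers of the kidney were high, with mean levels of 8 proximal tubule markers between 5.42 and 6.73 on every array. They were lower after IRI, at 5.62 to 5.90 on KO IRI arrays against 6.54 to 6.73 on KO sham arrays, and at 5.42 to 5.78 on WT IRI arrays against 6.07 to 6.36 on WT sham arrays. In bulk tissue, fewer cells of a type and less RNA per cell cannot be told apart.

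After IRI the ATF4 targets Asns and Psat1 rose in both genotypes. Averaged over the genotypes, no ER chaperone rose past the threshold and 3 of the 14 fell. Averaged over the genotypes, 9 of the 35 genes passed the threshold (limma, Benjamini-Hochberg adjusted p under 0.05 over all genes), 25.7%, against 20.2% of all genes tested. The 5 that rose, against 8.71% of all genes that did, were the ATF4 targets Psat1, Trib3, Asns and Mthfd2 and the regulator Atf5. The 4 that fell, against 11.4% of all genes, were Pdia3, Calr, Canx and Edem1. The count was 14 without WT IRI replicate 2 and 8 to 11 without any other single array; with arrays scaled to their median it was 6, with 6 higher and 0 lower. The median log2 fold change was 0.36 for the 11 ATF4 targets and -0.18 for the 14 chaperones, against -0.05 for all genes.

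**Figure D1:**
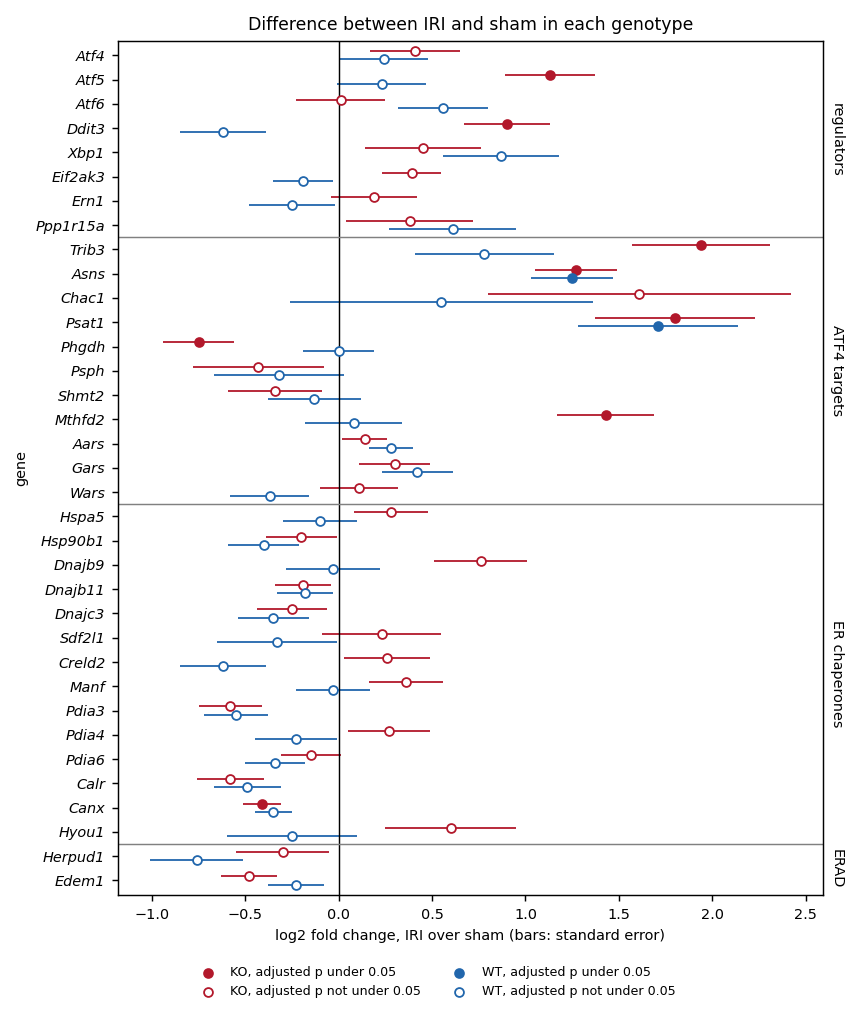
Log2 fold change of IRI over sham (horizontal axis) for each of the 35 genes (rows, grouped by role) in KO kidneys (red) and WT kidneys (blue), with standard errors as bars and filled points where the adjusted p was under 0.05. Asns and Psat1 are filled in both genotypes, Trib3 and Mthfd2 in KO kidneys, and all 14 WT points of the chaperones lie below 0.

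Within the genotypes, 8 of the 35 passed in KO kidneys, against 6.16% of all genes, and 2 of the 35 passed in WT kidneys, against 12.0% of all genes. The 8 in KO kidneys were Trib3, Psat1, Mthfd2, Asns, Atf5 and Ddit3, which rose, and Phgdh and Canx, which fell; 2.10% of all genes rose and 4.05% fell. The 2 in WT kidneys were Psat1 and Asns, which rose, as did 6.07% of all genes. The KO count rests on every KO array: leaving out KO sham replicate 1 gave 0, replicate 2 gave 3 and replicate 3 gave 2, and leaving out KO IRI replicate 1 gave 3, replicate 2 gave 5 and replicate 3 gave 1. Over all genes the number past the threshold in this comparison was 1598, and 454 without KO sham replicate 1. Among the WT sham arrays, which enter through the shared spread, leaving out replicate 1 gave a KO count of 4 and replicate 2 a count of 5. The WT count was 4 (1 higher, 3 lower) when WT IRI replicate 1 was left out, 5 (all higher) when replicate 2 of that group was, and 1 when replicate 3 was. It was also 1 when either of WT sham replicates 1 and 2 was left out, and when KO sham replicate 3 was.

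**Figure D2:**
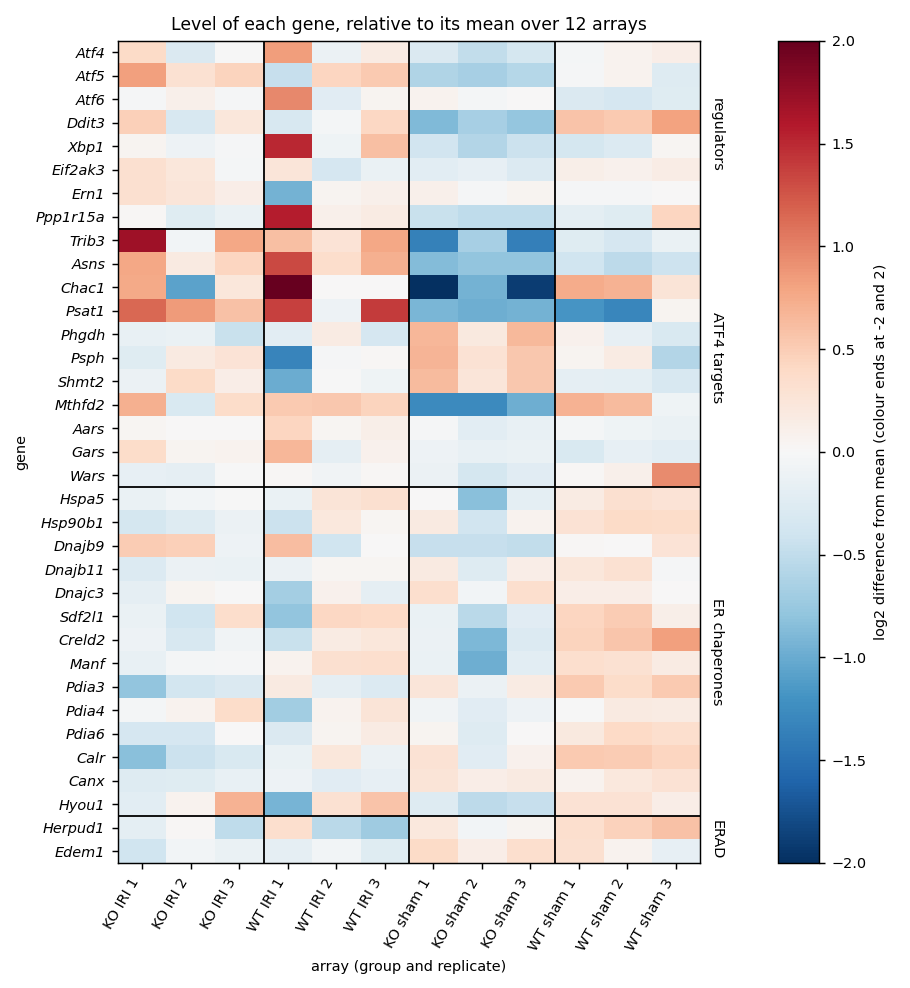
Level of each gene (rows, grouped by role) on each of the 12 arrays (columns) as the log2 difference from that gene's mean over all arrays, red above and blue below the mean. KO sham arrays are the bluest for Trib3 and Mthfd2, and WT IRI replicate 1 is the reddest for Xbp1, Ppp1r15a and Chac1.

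Among the regulators, Atf5 and Ddit3 rose after IRI in KO kidneys, and no regulator passed in WT kidneys. Atf5 encodes a transcription factor whose translation, like that of ATF4, is favoured when eIF2alpha is phosphorylated. On KO arrays its level was 4.01, 3.49 and 3.63 after IRI, against 2.59, 2.52 and 2.62 after sham. On WT arrays it was 2.72, 3.61 and 3.71 after IRI, against 3.16, 3.25 and 2.93 after sham. The KO groups did not overlap, a common pattern: all KO IRI arrays were above all KO sham arrays for 3614 of 25948 genes and below them for 5652. In WT kidneys replicate 1 after IRI was the only one of its group below the sham arrays. The log2 fold change was 1.13 ± 0.24 in KO kidneys (adjusted p = 0.0262), 0.23 ± 0.24 in WT kidneys (adjusted p = 0.568) and 0.68 ± 0.17 averaged over both (adjusted p = 0.0211). The small WT value rests on replicate 1 after IRI: without that array it was 0.55, which did not pass.

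Ddit3 encodes CHOP, a transcription factor that promotes cell death under lasting ER stress. Its level on KO arrays was 1.1, 0.30 and 0.85 after IRI, against -0.26, -0.04 and -0.15 after sham, and on WT arrays 0.30, 0.58 and 1.03 after IRI, against 1.20, 1.14 and 1.43 after sham. All 3 IRI arrays were above the sham arrays in KO kidneys and all 3 were below them in WT kidneys. Of the 35 genes only Ddit3 had groups that did not overlap and went in opposite directions in the 2 genotypes. Of all genes tested, 201 did so (0.775%). The log2 fold change was 0.90 ± 0.23 in KO kidneys (adjusted p = 0.0454) and -0.62 ± 0.23 in WT kidneys (adjusted p = 0.103). The difference of these responses, 1.52 ± 0.32, did not pass over all genes (adjusted p = 0.21). The KO call held under 9 of 22 alternatives. A dimmer Ddit3 probe, which the files assign to a separate Ensembl transcript, went the other way in KO kidneys (-0.85 ± 0.45) and the same way in WT kidneys (-1.38 ± 0.45). Averaged over the genotypes this dimmer probe fell past the threshold over probes (-1.11 ± 0.32), where the brighter one gave 0.14 ± 0.16 without passing.

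Xbp1 encodes the transcription factor whose RNA IRE1 splices. Its level was 5.90, 5.74 and 5.82 on KO IRI arrays, against 5.45, 5.25 and 5.41 on KO sham arrays, and 7.35, 5.76 and 6.44 on WT IRI arrays, against 5.49, 5.57 and 5.88 on WT sham arrays. The KO groups did not overlap, as for 3614 of 25948 genes that were higher. The WT groups did overlap, with WT IRI replicate 1 far above the rest. The averaged log2 fold change of 0.66 ± 0.22 did not pass (adjusted p = 0.0615); without WT IRI replicate 1 it was 0.45 (adjusted p = 0.0334), which passed.

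Atf4 itself, the central factor of the integrated stress response, did not pass in any comparison. It was 6.34, 5.66 and 5.94 on KO IRI arrays, against 5.67, 5.46 and 5.60 on KO sham arrays, and 6.79, 5.84 and 6.11 on WT IRI arrays, against 5.91, 6.03 and 6.08 on WT sham arrays. Both pairs overlapped, and the averaged log2 fold change was 0.32 ± 0.17 (adjusted p = 0.208). ATF4 is known to be controlled mainly at translation, which the arrays do not measure. The sensors Eif2ak3 (PERK), Ern1 (IRE1) and Atf6 had averaged log2 fold changes of 0.10, -0.03 and 0.28, and Ppp1r15a, the phosphatase subunit GADD34 that reverses eIF2alpha phosphorylation, 0.50; none of these 4 passed. All 8 regulators had log2 fold changes above 0 in KO kidneys, between 0.01 and 1.13, against 10359 of 25948 genes. In WT kidneys 5 of 8 were above 0, against 12823 of all genes. The KO count was 7 without KO sham replicate 2 and without KO IRI replicate 2.

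Among the ATF4 targets, Asns, Psat1, Trib3 and Mthfd2 rose after IRI, and Asns and Psat1 passed in each genotype on its own. Asns encodes asparagine synthetase; its probe lies at chr6:7625171-7625228 on mm9, the build of the probe coordinates in the files. Its level was 1.46, 0.87 and 1.12 on KO IRI arrays, against -0.17, -0.09 and -0.10 on KO sham arrays. On WT IRI arrays it was 2.01, 1.05 and 1.41, against 0.29, 0.17 and 0.28 on WT sham arrays. Every IRI array was above every sham array of either genotype. The log2 fold change was 1.27 ± 0.22 in KO kidneys (adjusted p = 0.012) and 1.25 ± 0.22 in WT kidneys (adjusted p = 0.0101), a 2.41-fold and a 2.37-fold higher signal, and without WT IRI replicate 1 it was 0.99 (adjusted p = 0.00892) in WT kidneys.

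Psat1 encodes phosphoserine aminotransferase, the middle step of serine synthesis, and its probe lies at chr19:15979622-15979681 (mm9). It had levels of 4.76, 4.47 and 4.20 on KO IRI arrays, against 2.71, 2.64 and 2.67 on KO sham arrays, and of 4.99, 3.52 and 5.02 on WT IRI arrays, against 2.44, 2.31 and 3.67 on WT sham arrays. The KO groups were far apart; in WT kidneys the lowest IRI array, replicate 2, was below the highest sham array, replicate 3. The log2 fold change was 1.80 ± 0.43 in KO kidneys (adjusted p = 0.0383) and 1.71 ± 0.43 in WT kidneys (adjusted p = 0.0316). The WT call was lost without WT IRI replicate 1, at 1.47 (adjusted p = 0.075), and held without WT sham replicate 3, at 2.14 (adjusted p = 0.0134). Averaged over the genotypes, 1.75 ± 0.31 was the largest rise among the 35 (adjusted p = 0.00401).

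None of the other serine enzymes among the 35 rose past the threshold. Phgdh encodes the first enzyme of serine synthesis, Psph the last, and Shmt2 the mitochondrial enzyme that splits serine to glycine. Phgdh was 2.03, 2.05 and 1.73 on KO IRI arrays, against 2.84, 2.38 and 2.83 on KO sham arrays, and 1.97, 2.35 and 1.84 on WT IRI arrays, against 2.26, 2.01 and 1.88 on WT sham arrays. It fell in KO kidneys (-0.75 ± 0.19, adjusted p = 0.0439), a call held under 10 of 22 alternatives. The KO groups did not overlap, as for 5652 of 25948 genes that were lower. Its log2 fold change in WT kidneys was 0.00 ± 0.19. Psph and Shmt2 had averaged log2 fold changes of -0.38 ± 0.24 and -0.24 ± 0.17 and did not pass.

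Mthfd2, the mitochondrial folate enzyme that works next to SHMT2 and is low in most adult tissues, rose in KO kidneys. Its level was -1.04, -2.05 and -1.39 on KO IRI arrays, against -3.02, -3.03 and -2.73 on KO sham arrays, and -1.23, -1.22 and -1.31 on WT IRI arrays, against -1.05, -1.12 and -1.83 on WT sham arrays. The KO sham arrays were lower than all other arrays, and the other 3 groups overlapped. The log2 fold change was 1.43 ± 0.26 in KO kidneys (adjusted p = 0.0143) and 0.08 ± 0.26 in WT kidneys (adjusted p = 0.873), and the difference of these responses, 1.35 ± 0.37, did not pass (adjusted p = 0.317).

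Trib3 encodes a pseudokinase that ATF4 and CHOP induce and that in turn restrains ATF4. It was 1.82, 0.06 and 0.90 on KO IRI arrays, against -1.24, -0.54 and -1.25 on KO sham arrays, and 0.72, 0.40 and 0.90 on WT IRI arrays, against -0.12, -0.21 and -0.01 on WT sham arrays. Neither pair overlapped. The log2 fold change was 1.94 ± 0.37 in KO kidneys (adjusted p = 0.0166), 0.78 ± 0.37 in WT kidneys (adjusted p = 0.196) and 1.36 ± 0.26 averaged over both (adjusted p = 0.0064).

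Chac1 encodes an enzyme that breaks down glutathione, and its arrays were the most spread. It was 0.99, -0.85 and 0.46 on KO IRI arrays, against -1.86, -0.72 and -1.67 on KO sham arrays, and 3.53, 0.23 and 0.24 on WT IRI arrays, against 0.97, 0.92 and 0.48 on WT sham arrays. WT IRI replicate 1 was far above all other arrays, and the other 2 WT IRI arrays were below the WT sham arrays. No comparison passed with all arrays. Without WT IRI replicate 1, the log2 fold change of KO IRI over KO sham kept its value of 1.61 and passed (adjusted p = 0.048), and that of WT IRI over WT sham was -0.55 (adjusted p = 0.511).

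For the 3 tRNA synthetases among the targets, the averaged log2 fold changes were 0.36 ± 0.14 for Gars (glycyl-), 0.21 ± 0.09 for Aars (alanyl-) and -0.13 ± 0.15 for Wars (tryptophanyl-tRNA synthetase), and none passed. Aars had all IRI arrays above all sham arrays in both genotypes. Over the 11 ATF4 targets, 4 rose, 0 fell and 7 did not pass in the averaged comparison. Over all genes, 8.71% rose and 11.4% fell in it. The groups did not overlap in both genotypes for Trib3, Asns and Aars, all higher, a pattern seen for 6.40% of all genes.

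**Figure D3:**
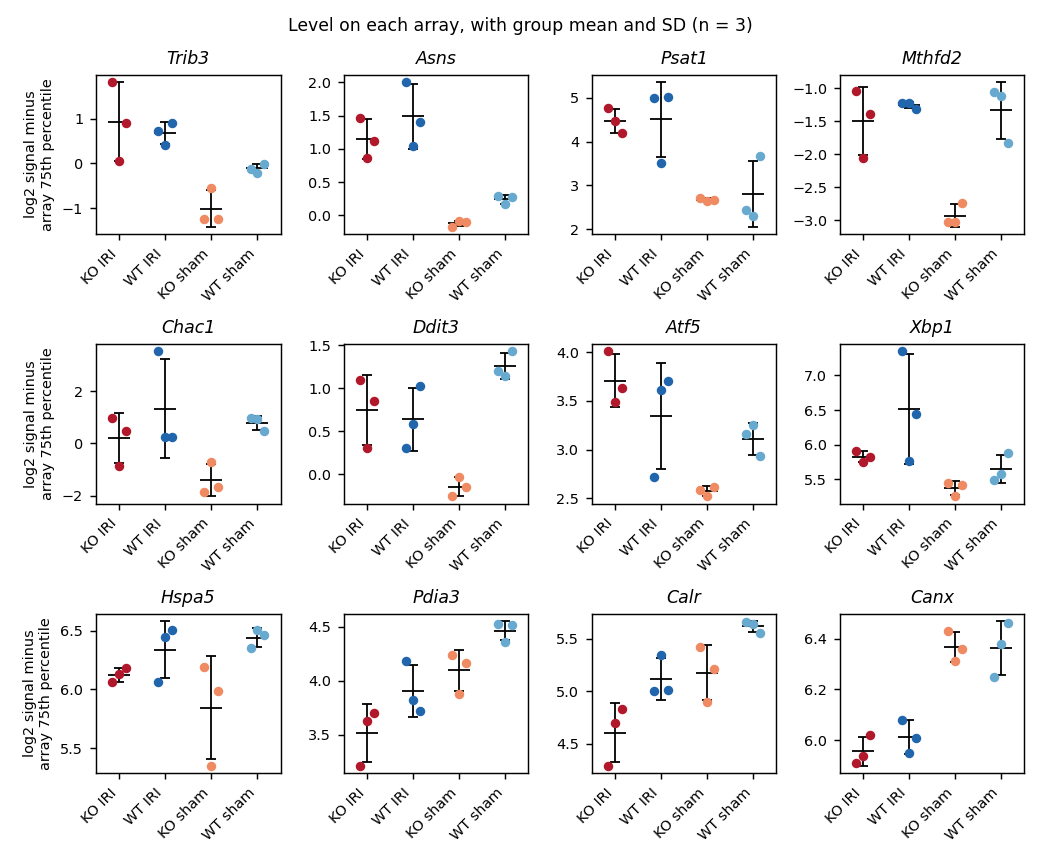
Level (log2 signal minus the 75th percentile of the array) of 12 of the genes on each array, in the order KO IRI, WT IRI, KO sham, WT sham, with the group mean and SD (n = 3) in black; each panel has its own vertical scale. Asns and Psat1 are higher in both IRI groups, Pdia3, Calr and Canx are lower, and Mthfd2 and Ddit3 are lowest on KO sham arrays.

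Of the ER chaperones and folding enzymes, 0 of 14 rose past the threshold in the averaged comparison and 3 fell, against 8.71% and 11.4% of all genes. In a list of 14 these counts are too small to be told from those shares. The 3 that fell were Canx, Calr and Pdia3, which work together on glycoproteins. Canx (calnexin) and Calr (calreticulin) are lectin chaperones that hold newly made glycoproteins, and Pdia3 (ERp57) is the disulfide isomerase that binds to them. Calr was 4.29, 4.70 and 4.83 on KO IRI arrays, against 5.42, 4.90 and 5.21 on KO sham arrays, and 5.00, 5.35 and 5.01 on WT IRI arrays, against 5.66, 5.64 and 5.56 on WT sham arrays. Pdia3 was 3.21, 3.63 and 3.70 on KO IRI arrays, against 4.24, 3.88 and 4.16 on KO sham arrays, and 4.18, 3.82 and 3.72 on WT IRI arrays, against 4.52, 4.36 and 4.51 on WT sham arrays. Canx was 5.91, 5.94 and 6.02 on KO IRI arrays, against 6.43, 6.31 and 6.36 on KO sham arrays, and 6.08, 5.95 and 6.01 on WT IRI arrays, against 6.25, 6.38 and 6.46 on WT sham arrays. For these 3 genes every IRI array was below every sham array of the same genotype, a pattern seen for 7.77% of all genes.

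The averaged log2 fold changes were -0.57 ± 0.12 for Pdia3 (adjusted p = 0.0104), -0.53 ± 0.13 for Calr (adjusted p = 0.0161) and -0.38 ± 0.07 for Canx (adjusted p = 0.00564). The falls of Pdia3, Calr and Canx were of nearly the same size in both genotypes, at -0.58, -0.58 and -0.41 in KO kidneys and -0.55, -0.49 and -0.35 in WT kidneys, of which Canx passed in KO kidneys alone (adjusted p = 0.043, held under 6 of 22 alternatives). The differences between the genotypes were -0.03 ± 0.25, -0.08 ± 0.25 and -0.06 ± 0.14 (adjusted p of 0.974, 0.924 and 0.901). A second Canx probe gave a smaller averaged change of -0.12 ± 0.10 that did not pass, and a second Pdia3 probe a similar one of -0.53 ± 0.15 that did. With arrays scaled to their median in place of the 75th percentile, none of the 3 passed (-0.50, -0.47 and -0.31, adjusted p of 0.0508, 0.0731 and 0.0541).

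Hspa5 encodes BiP, the main HSP70 chaperone of the ER and the usual readout of the unfolded protein response. It was 6.06, 6.13 and 6.18 on KO IRI arrays, against 6.19, 5.35 and 5.99 on KO sham arrays, and 6.06, 6.45 and 6.51 on WT IRI arrays, against 6.35, 6.51 and 6.46 on WT sham arrays. Both pairs overlapped, KO sham replicate 2 was the lowest array, and the averaged log2 fold change was 0.09 ± 0.14 (adjusted p = 0.703). Its partners had averaged log2 fold changes of -0.30 for Hsp90b1 (the HSP90 of the ER), -0.18 for Dnajb11, -0.30 for Dnajc3 and -0.05 for Sdf2l1 (cofactors of BiP), and 0.17 for Hyou1 (its exchange factor). The isomerases Pdia4 and Pdia6 had 0.02 and -0.25, and the secreted or luminal proteins Creld2 and Manf -0.18 and 0.17. None of these 9 passed.

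Dnajb9, a BiP cochaperone that is a known target of spliced XBP1, had the largest log2 fold change of the chaperones in KO kidneys. It was 4.04, 4.0 and 3.42 on KO IRI arrays, against 3.07, 3.07 and 3.04 on KO sham arrays, and 4.14, 3.12 and 3.53 on WT IRI arrays, against 3.55, 3.53 and 3.80 on WT sham arrays. The KO groups did not overlap, as for 3614 of 25948 genes that were higher, and the WT groups did. The change of 0.76 ± 0.25 in KO kidneys did not pass (adjusted p = 0.105), and passed without WT IRI replicate 1 (adjusted p = 0.027) through the spread that the groups share.

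The chaperones as a set are described by their medians. In WT kidneys all 14 had log2 fold changes below 0, with a median of -0.34, against -0.01 for all genes; without WT IRI replicate 1, 9 of 14 were below 0 and the median was -0.18. In KO kidneys 7 of 14 were below 0 and the median was 0.04, against -0.08 for all genes. The sign of the KO median was negative under 2 of 22 alternatives, and that of the WT median kept its sign under all 22. In the fit across all genes no chaperone passed the test of the difference between genotypes.

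Both genes of ER-associated degradation were lower after IRI, and Edem1 passed. Edem1 encodes a lectin that sends misfolded glycoproteins to degradation; it was 1.82, 2.17 and 2.09 on KO IRI arrays, against 2.60, 2.36 and 2.56 on KO sham arrays, and 2.05, 2.17 and 1.98 on WT IRI arrays, against 2.54, 2.29 and 2.06 on WT sham arrays. The KO groups did not overlap, as for 5652 of 25948 genes that were lower, and the WT groups did. The averaged log2 fold change of Edem1 was -0.35 ± 0.11 (adjusted p = 0.0415), a call held under 11 of 21 alternatives. Herpud1, which encodes a membrane protein of the degradation complex and whose promoter held both kinds of element, was 5.50, 5.72 and 5.18 on KO IRI arrays, against 5.90, 5.64 and 5.75 on KO sham arrays, and 6.02, 5.15 and 4.98 on WT IRI arrays, against 6.02, 6.15 and 6.27 on WT sham arrays. WT IRI replicate 1 was as high as a sham array and the other 2 were lower. The averaged change of -0.53 ± 0.18 did not pass (adjusted p = 0.0593), and without that array it was -0.69 (adjusted p = 0.00289), which passed.

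The ATF4 targets and the chaperones were set against each other on every array. Each gene was centred on its mean over the 12 arrays, and the mean of the 14 chaperones was subtracted from that of the 11 ATF4 targets. This difference was 0.67, 0.13 and 0.20 on KO IRI arrays, against -0.46, -0.02 and -0.37 on KO sham arrays, and 0.79, 0.00 and 0.17 on WT IRI arrays, against -0.33, -0.43 and -0.36 on WT sham arrays. IRI arrays were above sham arrays in both genotypes; because of the centring only such differences between arrays have a meaning, not the position of 0. The group means were 0.33 ± 0.29 in KO IRI, 0.32 ± 0.42 in WT IRI, -0.28 ± 0.23 in KO sham and -0.37 ± 0.05 in WT sham kidneys (SD, n = 3 each). In KO kidneys the ATF4 targets averaged 0.22 ± 0.22 after IRI and -0.43 ± 0.01 after sham, and the chaperones -0.12 ± 0.12 after IRI and -0.15 ± 0.22 after sham. In WT kidneys the ATF4 targets averaged 0.30 ± 0.21 after IRI and -0.09 ± 0.02 after sham, and the chaperones -0.02 ± 0.22 after IRI and 0.28 ± 0.03 after sham. The WT IRI mean of the chaperones rests on replicate 1, at -0.27, against 0.10 and 0.12 on the other arrays of the group. Their KO sham mean rests on replicate 2, at -0.40, against 0.03 and -0.07 on the other arrays of that group. Without KO sham replicate 2 the median log2 fold change of the chaperones in KO kidneys was -0.11, against 0.04 with all arrays. Whether the sets differ between the genotypes was not tested, and no single gene passed the interaction. The difference of the medians was 0.25 in KO and 0.62 in WT kidneys; it was 0.34 in WT kidneys without WT IRI replicate 1.

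**Figure D4:**
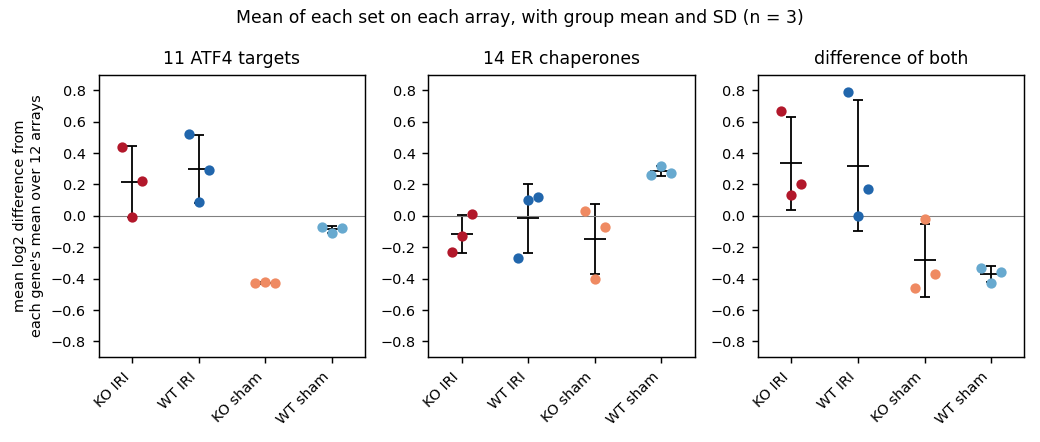
Mean of the 11 ATF4 targets, of the 14 ER chaperones and their difference on each array, as the mean log2 difference from each gene's mean over the 12 arrays, in the order KO IRI, WT IRI, KO sham, WT sham, with group mean and SD (n = 3). The difference is 0.00 to 0.79 on IRI arrays and -0.46 to -0.02 on sham arrays, while the chaperones are highest on WT sham arrays.

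Other values moved with these sets. After IRI, 6 of 8 proximal tubule markers and 4 of 6 markers of the thick limb and distal tubule fell in the averaged comparison, 3 of 4 tubule injury markers and 4 of 5 neutrophil markers rose, 3 of 3 erythrocyte and 2 of 4 adipocyte markers rose, and 6 of 6 T and NK cell and 4 of 5 B and plasma cell markers fell. By genotype, 0 of 6 T and NK cell markers fell past the threshold in KO and 6 of 6 in WT kidneys. Likewise 0 of 3 erythrocyte markers rose past it in KO and 3 of 3 in WT kidneys. The mean level of the 6 T and NK cell markers was nonetheless lower after IRI in both genotypes. It was -4.11 to -3.6 on KO IRI arrays, against -2.81 to -1.54 on KO sham arrays. On WT IRI arrays it was -3.03 to -2.5, against -1.28 to 1.89 on WT sham arrays. The mean level of the 5 neutrophil markers was -0.40 to 0.89 on KO IRI arrays, against -2.51 to -1.16 on KO sham arrays, and 2.19 to 2.78 on WT IRI arrays, against -1.16 to 0.94 on WT sham arrays. Their part in the changes of the ATF4 targets and chaperones was not tested.

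After sham operation, Mthfd2, Ddit3 and Creld2 were lower in KO than in WT kidneys. Of the 35, these 3 passed, against 8.85% of all genes in either direction and 3.73% lower. Across the 35, 26 log2 fold changes were below 0 and the median was -0.38, while 9077 of 25948 genes were below 0 and the median of all genes was 0.12. In 23 of the 35 all KO sham arrays were below all WT sham arrays, a pattern seen for 12.2% of all genes. Among the 14 chaperones this held for 11, with a median log2 fold change of -0.41 and 12 of 14 below 0. Without KO sham replicate 2 their median was -0.29, with 12 of 14 below 0.

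**Figure D5:**
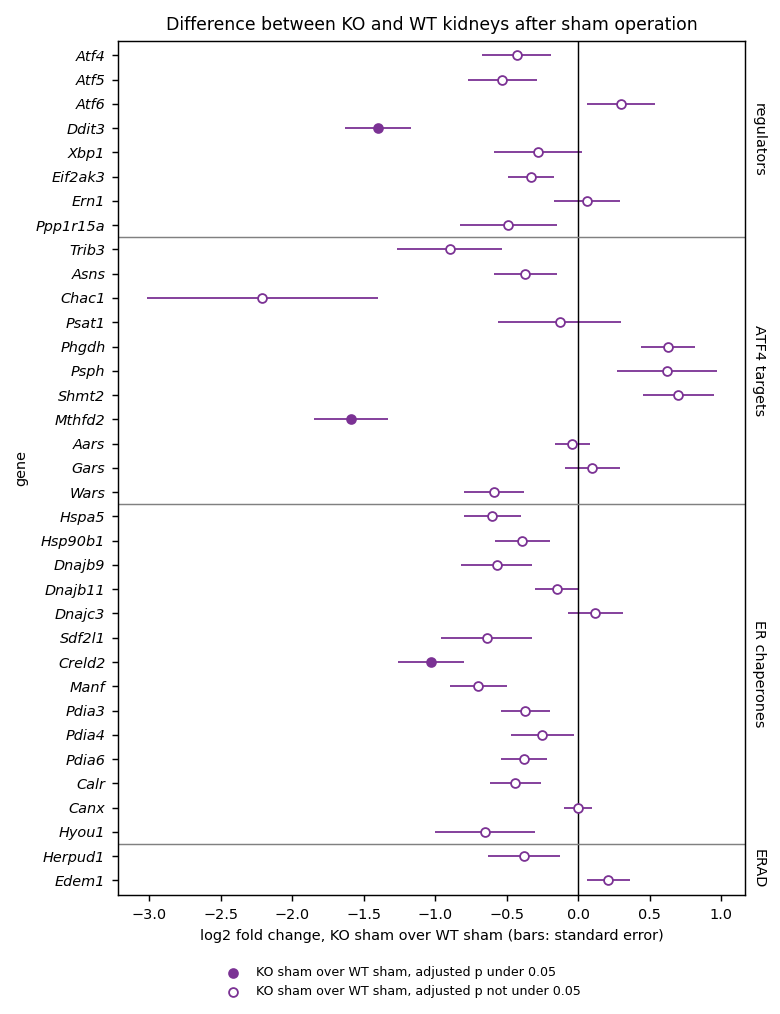
Log2 fold change of KO sham over WT sham (horizontal axis) for each of the 35 genes (rows, grouped by role), with standard errors as bars and filled points where the adjusted p was under 0.05. The 3 filled points, Ddit3, Mthfd2 and Creld2, lie at -1.40, -1.59 and -1.03, and 12 of the 14 chaperones are left of 0.

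Mthfd2 was -2.93 ± 0.17 in KO sham kidneys and -1.34 ± 0.43 in WT sham kidneys (SD, n = 3 each), a log2 fold change of -1.59 ± 0.26 (adjusted p = 0.00768) that passed under all 22 alternatives. Its second probe gave -1.41 ± 0.22. Ddit3 was -0.15 ± 0.11 and 1.26 ± 0.15 in the same groups, a change of -1.40 ± 0.23 (adjusted p = 0.00703); its dimmer probe gave -0.75 ± 0.45 and did not pass. Creld2, an ER-stress-induced folding factor, was 4.80, 4.02 and 4.65 on KO sham arrays, against 5.36, 5.47 and 5.73 on WT sham arrays. Its groups did not overlap, and its change of -1.03 ± 0.23 passed (adjusted p = 0.026), a call held under 17 of 22 alternatives. KO sham replicate 2 was the lowest array for Creld2, Hspa5 and Manf. Manf, a secreted factor of the ER stress response, came next among the chaperones with -0.70 ± 0.20 (adjusted p = 0.0562), and passed without WT IRI replicate 1 (adjusted p = 0.0401).

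Of the serine enzymes, Phgdh, Psph and Shmt2 were higher on all 3 KO sham arrays than on all WT sham arrays. This pattern was common, at 7936 of 25948 genes. The log2 fold changes of the 3 enzymes were 0.63 ± 0.19, 0.62 ± 0.35 and 0.70 ± 0.25 (adjusted p of 0.0635, 0.314 and 0.107), and none passed. Psat1 was at -0.13 ± 0.43. Without WT IRI replicate 1, which lies outside this comparison and enters only through the shared spread, 8 of the 35 passed: Chac1, Mthfd2, Ddit3, Creld2, Manf and Atf5, lower, and Shmt2 and Phgdh, higher. With only the sham arrays in the fit, 13 passed, 12 of them lower. The KO sham arrays are shared with the IRI comparison in KO kidneys, and the WT sham arrays with that in WT kidneys, so a low KO sham level counts in both.

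In the same comparison 4 of 6 T and NK cell markers, 3 of 4 cell cycle markers, 2 of 5 macrophage, 2 of 5 neutrophil and 1 of 4 tubule injury markers were lower in KO sham kidneys past the threshold, and 1 of 8 proximal tubule markers was higher. The mean level of the 6 T and NK cell markers was -2.81 to -1.54 on KO sham arrays, against -1.28 to 1.89 on WT sham arrays. That of the 4 cell cycle markers was -3.04 to -1.99 on KO sham arrays, against -0.93 to 0.23 on WT sham arrays. That of the 4 tubule injury markers was -2.75 to -2.45 on KO sham arrays, against -1.85 to -0.47 on WT sham arrays. Their part in the lower levels of the 35 genes was not tested, and genotype and slide cannot be told apart.

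In KO IRI against WT IRI kidneys 0 of the 35 passed, against 1.93% of all genes. At that share a list of this length would hold hardly any call. An unadjusted p under 0.05 was found for 2 of the 35, against 5625 of 25948 genes. The median log2 fold change was -0.11, against 0.04 for all genes. The widest values were -1.14 ± 0.81 for Chac1, -0.72 ± 0.34 for Ppp1r15a and -0.70 ± 0.31 for Xbp1, each with WT IRI replicate 1 as the highest WT array. Without that array Chac1 was -0.04 (adjusted p = 0.975), Ppp1r15a -0.24 and Xbp1 -0.28 (adjusted p = 0.466), and none of them passed. Without WT IRI replicate 2, 1 of the 35 passed, Xbp1 at -1.07 (adjusted p = 0.0472). For the interaction, which subtracts the WT response to IRI from the KO response, 0 of the 35 passed, against 0.0694% of all genes. Here 7 of the 35 had an unadjusted p under 0.05, against 2535 of 25948 genes. A p above the threshold does not show that the genotypes respond alike: the standard error of the interaction was 0.32 for Asns, 0.61 for Psat1 and 1.15 for Chac1.

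Other genes of the same pathways, 94 measured in 9 lists, are given for the averaged comparison, in which 18 rose and 9 fell, against 8.71% and 11.4% of all genes. The lists were chosen with earlier results of these data known, so setting their counts against these shares is not an independent test. No more is read from the counts of the single lists. Of 10 other transcription factors and outputs of the integrated stress response, 5 rose and 0 fell: Atf3 (1.71 ± 0.31, adjusted p = 0.0048), Gdf15 (1.80), Nupr1 (0.99), Stc2 (0.77) and Fgf21. Fgf21, a stress hormone, was not well above background on any sham array and passed the filter on dim probes through its IRI arrays alone. Its call is therefore counted here but not used as a test. Its signal was at least 4.95-fold higher in KO IRI than in KO sham kidneys, and at least 9.79-fold higher in WT IRI than in WT sham kidneys. These bounds set the mean of the IRI arrays against the mean of the sham arrays with each sham value raised to the lowest signal well above background on its array. Of 9 amino acid transporters under ATF4, 4 rose and 0 fell: the neutral amino acid transporter Slc1a4 (1.92 ± 0.32, adjusted p = 0.00328), Slc6a9 (0.71), Slc38a2 (0.60) and the cystine transporter Slc7a11. Slc7a11 too was not well above background on any sham array and passed the filter through IRI arrays alone, so its call is only counted. By the same bound it was at least 4.65-fold higher in WT IRI than in WT sham kidneys. It was at least 1.51-fold higher in KO IRI, where 2 of 3 arrays measured it, than in KO sham kidneys.

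Of 16 other tRNA synthetases, 4 rose, namely Mars1 (0.48), Vars (0.54), Sars (0.33) and Tars (0.26), and the mitochondrial Fars2 fell (-0.39). Of 8 other genes of amino acid synthesis and one-carbon metabolism, Mthfd1l (0.86) and Aldh18a1 (0.71) rose, and Cbs (-1.12) and Cth (-0.43), which make cysteine from homocysteine, fell. On the ER side, 0 of 13 other folding and redox genes rose and 2 fell, Fkbp2 (-0.30) and Ero1lb. Ero1lb was not well above background on any IRI array and passed the filter through sham arrays alone, so its call is only counted. Of 10 genes of ER-associated degradation, 0 rose and 2 fell, Derl1 (-0.26) and Sel1l (-0.29). Of 14 genes of ER translocation and transport, Sec24d (0.66) and Spcs3 (0.40) rose and Sec62 (-0.41) fell. Of 9 other sensors and processing genes, Creb3l1 (0.50) rose and Mbtps1 (-0.38), the protease that cuts ATF6, fell. No gene of the eIF2alpha kinase and phosphatase list passed.

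Between the genotypes, 4 of these 94 genes passed in the sham groups, against 8.85% of all genes. Atf3 (-2.01 ± 0.44, adjusted p = 0.0226) and Aldh18a1 (-0.91) were lower in KO sham than in WT sham kidneys, and Slc7a5 (1.08) and Creb3l1 (0.75) were higher. After IRI, 1 of the 94 passed, against 1.93% of all genes, namely Atf3, lower in KO IRI than in WT IRI kidneys (-2.22 ± 0.44, adjusted p = 0.0367), a call held under 11 of 22 alternatives. ATF3 is an immediate-early factor that many stress signals besides ATF4 induce.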

How the data were processed

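RNA of 12 kidneys was labelled with Cy3 and hybridised to one-colour arrays. Per the file headers, Agilent Feature Extraction 10.7.1.1 produced the deposited spot intensities. The processed intensity was background-corrected within the array before it was deposited, and is linear. The authors' own log2 values were deposited too and served as an alternative, and limma is named without a version in the submitters' processing notes.

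Control spots and spots marked as outliers were left out, spots of a probe averaged, and log2 processed signal reduced by the array's 75th percentile. Probes well above background on at least 3 of 12 arrays were kept, and the probe with the highest mean stood for a gene. Symbols were updated through RefSeq (GRCm38.p6), which matched 32994 of 56605 probes; none of the 69 probes of the 35 genes was saturated or marked as an outlier. Precision is limited by 3 arrays per group.

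The 4 group means were estimated with limma 3.58.1 (R 4.3.3, lmFit and eBayes) on all 12 arrays, with 8 residual degrees of freedom. Tests were two-sided, p-values were adjusted by Benjamini-Hochberg across the 25948 genes, and the threshold was 0.05. Errors of fold changes are standard errors. The series text calls the 3 samples of each group independent. On simulated arrays of 25928 genes, 100 genes were changed 2-fold and 100 were changed 4-fold. The fit recovered 49% of 2-fold and 74% of 4-fold changes for WT IRI against WT sham, and 42% and 79% for KO IRI against KO sham. The simulation gave each gene the same spread on all arrays and independent noise. Far more genes passed in the real comparisons, 3108 in WT and 1598 in KO kidneys. The recovered shares therefore do not give the power in these data. All 35 genes may be named; genes of 9 further pathway lists are named where they passed. The genes, roles, lists and markers were chosen with earlier results of these data known. Alternatives were other background correction and scaling, the authors' values, other filters and probe rules, array weights, a replicate block, smaller fits and leaving out each array.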

Additional observations from a re-analysis of the deposited data

How the results depend on the processing

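None of the 22 calls of single genes changed sign under any alternative run. The 6 calls kept under all of them were the averaged rises of Asns, Psat1, Trib3, Mthfd2 and Atf5 and the lower Mthfd2 of KO sham kidneys, and 16 were lost under at least 1. The number of the 35 genes past the threshold moved most. In WT IRI against WT sham it was 2, and 7 with normexp and quantile normalization (4 higher, 3 lower), 5 with quantile normalization or the authors' log2 values (2 higher, 3 lower), 11 with array weights, 0 with only the groups compared, and 1 to 5 without single arrays. In KO IRI against KO sham it was 8 (6 higher, 2 lower), and 6 with median scaling (6 higher, 0 lower), 4 with no filter on dim probes, 15 with array weights and 0 to 11 without single arrays. In the averaged comparison it was 9, and 20 with array weights and 8 to 14 without single arrays. In KO sham against WT sham it was 3, and 13 with only the groups compared, 23 with array weights and 2 to 8 without single arrays. In KO IRI against WT IRI it was 0 to 1 without single arrays. For the interaction it was 0 without any single array, and 4 with array weights (Chac1, Ddit3, Eif2ak3 and Mthfd2, all higher). With array weights the number of all genes past the threshold in WT kidneys was 8921, against 3108 without them. The cause was not tested.

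The median of the ATF4 targets minus that of the chaperones was 0.62 in WT kidneys (0.28 with array weights, 0.34 to 0.76 without single arrays), 0.25 in KO kidneys (0.81 with Atf5, Ddit3, Ppp1r15a, Herpud1 and Edem1 added to the sets, 0.13 to 0.43 without single arrays), 0.54 averaged (0.35 to 0.66), 0.28 between the sham groups (-0.04 with the longer sets, 0.04 to 0.38), 0.05 between the IRI groups (-0.14 to 0.25) and -0.27 for the interaction (-0.43 to 0.14). The interaction's median difference was above 0 without WT IRI replicate 1, at 0.14.

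The replicate numbers did not pair arrays: same-numbered arrays of different groups deviated from their group means with r from -0.267 to 0.151. A fit with the replicate block gave 2, 4, 8, 3, 0 and 0 genes past the threshold in the order WT IRI, KO IRI, averaged, sham genotypes, IRI genotypes and interaction. Slide could not be added as a block because it coincides with genotype. Median scaling moved the median of all genes in KO IRI against KO sham to 0.06, against -0.08 with the 75th percentile.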

Other observations

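The chaperones that carry the ER stress element and those that do not can be set side by side as a description. The 7 with the element had a median averaged log2 fold change of -0.30 after IRI, and the 5 without it, among the 12 with a promoter sequence, -0.05. The 5 include Dnajb11, which holds the second ER stress element. In KO kidneys the medians were -0.20 and 0.23, and in WT kidneys -0.35 and -0.23. Between KO sham and WT sham kidneys they were -0.39 and -0.37. No test was made of these medians, since the genes of a set are not replicates.

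Some genes were read by more than 1 probe, 21 of the 35, and a few probes disagreed. The dimmest probe of Ern1 rose in WT kidneys (0.83 ± 0.19), where the brightest gave -0.25 ± 0.23. A second Manf probe was lower in KO sham than in WT sham kidneys past the threshold over probes (-0.68 ± 0.18), where the brightest gave -0.70 ± 0.20 without passing. Second probes of Asns, Psat1 and Mthfd2 gave averaged log2 fold changes of 1.53 ± 0.15, 2.01 ± 0.37 and 0.67 ± 0.15, all past the threshold.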
